A study of Mus musculus with 8 samples.

Results

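The genes described here are 8 markers of vascular smooth muscle and pericytes: Acta2, Myh11, Tagln, Cnn1, Myocd, Rgs5, Pdgfrb and Cspg4. They were chosen by name, as the non-control probes whose gene name on the array is one of these symbols, and they were represented by 17 of 41174 probes and 26 of 43379 spots. The mice were C57BL/6 males 8 weeks of age, RNA was taken from their tibialis anterior, a mostly fast-twitch leg muscle, and each mouse gave 1 single-colour Agilent array. Prep1deltaSM mice (n = 4), in which Prep1 was ablated in skeletal muscle, were compared with Prep1f/+ mice (n = 4), which the labels show with 1 floxed and 1 wild-type allele and the design text calls flox mice. The labels do not name the Cre line or the cells in which it acts. Prep1 is the protein encoded by Pknox1, a homeodomain factor of the TALE class.

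Smooth muscle cells wrap arterioles and larger vessels, and pericytes wrap capillaries. Contractile smooth muscle genes are switched on by serum response factor (SRF) bound to CArG boxes in their promoters, with myocardin (Myocd) as its partner. Pericytes are recruited to endothelium by platelet-derived growth factor B acting on the receptor Pdgfrb. In a whole muscle both cell types are a small part of the tissue, so that fewer cells of a type and less RNA per cell cannot be told apart.

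The array measures each gene through 60-base probes, and for Acta2 the probe mattered. Its probe A_51_P450957 is shown because its values differed from those of the other Acta2 probes. The capitals mark a run of 17 bases that is also found in the probe of TC1765066, a transcript that the array annotation describes as a fragment of cytoskeletal beta-actin.

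Acta2 probe A_51_P450957: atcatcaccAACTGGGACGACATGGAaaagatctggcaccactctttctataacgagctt

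In the files this probe maps to chr19:34322995-34326249 in mm9 on the minus strand. That span of 3255 bases exceeds the probe's 60 bases, so the probe crosses at least 1 intron. In an ungapped alignment 36 of the 60 bases were identical to the TC1765066 probe. The array's probe of Acta1, the skeletal muscle alpha-actin gene, shared a run of at most 8 bases with A_51_P450957. These comparisons were between probes only. A_51_P450957 was not compared with the Acta1 transcript, so they cannot show whether that transcript hybridises to it. Of the other member probes, none shared a run of more than 15 bases with a probe of another gene on the array.

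Values are log2 signals relative to the 75th percentile of the array, where 0 is that percentile. Arrays had 23787 to 27123 spots well above background. Prep1f/+ replicates 1 and 4 stood apart from the other 6 arrays on the first principal component, and every one of the 4 slides carried a Prep1deltaSM and a Prep1f/+ array. Pknox1 was at -1.84, -2.08, -2.28 and -1.96 in Prep1deltaSM muscle, against -0.09, -0.31, -0.21 and -0.51 in Prep1f/+ muscle. Its difference of -1.76 ± 0.13 (SE, limma adjusted p = 0.0072) made it the 1 gene of 16016 tested past the threshold, and the adjusted p was 0.062 with slide as a block.

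All 8 members had a probe that was detected above background on 4 or more of the 8 arrays, and 14 of their 17 probes passed that filter. None of the 8 passed an adjusted p of 0.05 (limma), a threshold passed by 0.00624% of all genes tested. At an unadjusted p under 0.05, Acta2 and Myh11 were higher in Prep1deltaSM muscle, where 5.54% of all genes were higher, and Cspg4 was lower, where 10.3% were lower. The 2 genes with higher signal were also those whose groups did not overlap, against 3.72% of all genes higher in this way. No member was lower without overlap, against 6.74% of all genes. Of the members 4 were higher and 4 lower, with a median difference of 0.00 on the log2 scale, against a median of -0.07 and 62.7% lower over all genes. Of the genes at an unadjusted p under 0.05, 34.9% were higher with this scaling, 46.3% with quantile normalization and 44.1% with normexp before it. The shares of genes without overlap moved too, to 5.01% higher and 4.88% lower with quantile normalization.

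**Figure D1:**
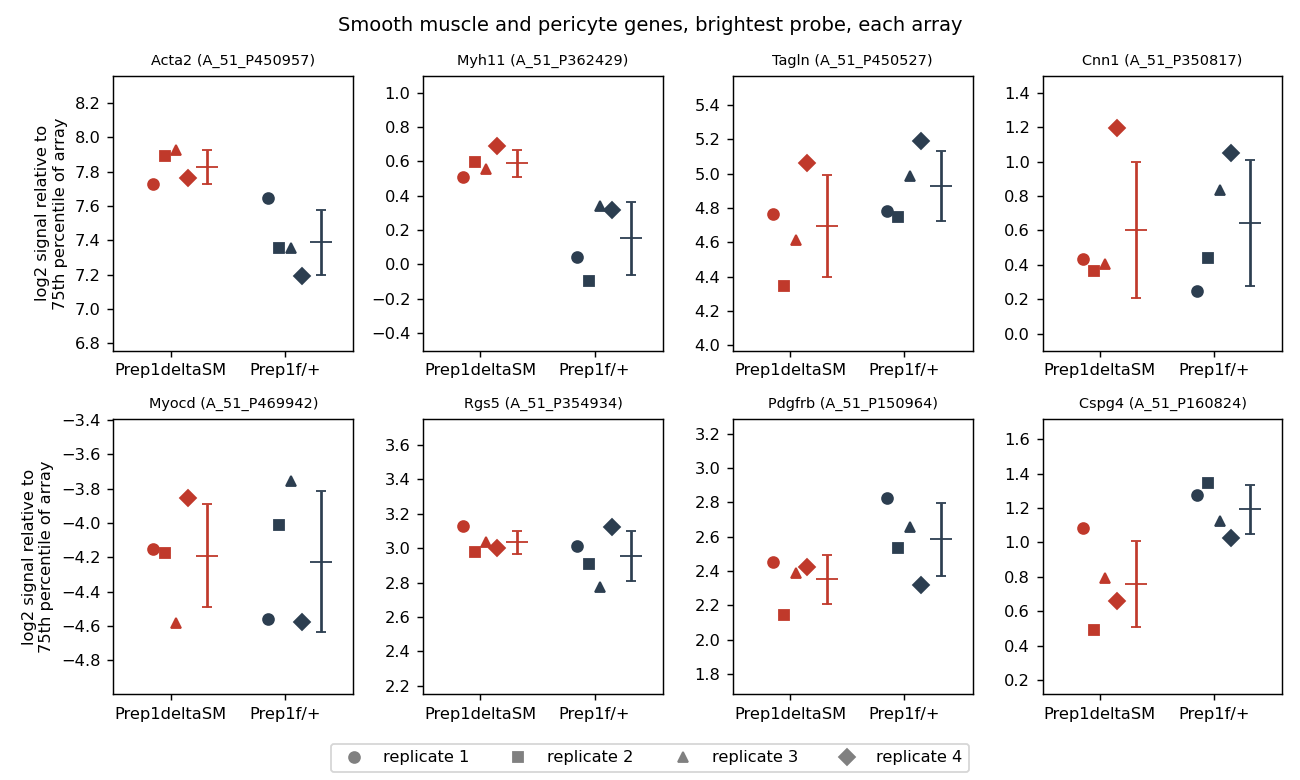
Log2 signal relative to the array's 75th percentile for the brightest probe of each of the 8 genes, with Prep1deltaSM mice at the left and Prep1f/+ mice at the right of each panel, 1 point per mouse and the mean ± SD beside them (n = 4 each). Each panel spans the same number of log2 units; Acta2 and Myh11 separate the groups, with Prep1deltaSM values above all Prep1f/+ values, and the other panels overlap.

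Of the contractile genes, Myh11 encodes the myosin heavy chain of smooth muscle. Its log2 signal was 0.51, 0.60, 0.56 and 0.69 in Prep1deltaSM muscle, against 0.04, -0.09, 0.34 and 0.32 in Prep1f/+ muscle. The lowest Prep1deltaSM mouse lay above the highest Prep1f/+ mouse. The difference was 0.44 ± 0.12 (SE), with a 95% confidence interval of 0.17 to 0.70, which is 1.35-fold. Myh11 did not pass (limma adjusted p = 0.179; exact two-sided permutation p = 0.0286, the smallest that 70 assignments allow). Within slides 1 to 4 the difference was 0.60, 0.26, 0.65 and 0.24, so Prep1deltaSM was higher on 4 of 4 slides. Fitting slide as a block gave an adjusted p of 0.230 (limma). The only Myh11 probe, A_51_P362429, maps to chr16:14195223-14198147 on the minus strand in mm9. That span of 2925 bases exceeds the probe's length, so this probe also crosses at least 1 intron.

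Acta2 encodes alpha smooth muscle actin, the most used marker of smooth muscle. By its brightest probe, A_51_P450957, it was at 7.73, 7.89, 7.92 and 7.77 in Prep1deltaSM muscle, against 7.65, 7.35, 7.36 and 7.19 in Prep1f/+ muscle. The groups did not overlap, although Prep1f/+ replicate 1 came close to the lowest Prep1deltaSM value. The difference was 0.44 ± 0.11 (SE), or 1.36-fold, with a 95% interval of 0.18 to 0.70, and it did not pass (limma adjusted p = 0.171; exact two-sided permutation p = 0.0286). Within slides 1 to 4 it was 0.37, 0.54, 0.12 and 0.73, and fitting slide as a block gave an adjusted p of 0.247 (limma).

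The other Acta2 probes gave smaller or opposite differences, each with an interval that includes 0. Probe A_52_P420504, printed in 10 spots per array and mapped to chr19:34316060-34316119, was at 4.06, 3.71, 3.98 and 4.35 in Prep1deltaSM muscle, against 3.74, 3.79, 4.17 and 4.36 in Prep1f/+ muscle. The ranges lay almost on top of each other. The difference was 0.01 ± 0.18 (SE), with an interval of -0.41 to 0.42, in a fit over all probes. Probe A_52_P210078 differed by 0.14 ± 0.19 and probe A_52_P239556 by -0.21 ± 0.22, and A_52_P644232 was not well above background on any array. A_52_P239556 was well above background on 4 arrays of each group but dim, with means of -3.88 in Prep1deltaSM and -3.67 in Prep1f/+ muscle. The call of Acta2 among the members with higher signal therefore rested on A_51_P450957. With A_52_P420504 in its place, 1 member in place of 2 had groups that did not overlap.

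Across the 8 arrays the Acta2 probes fell into different patterns. Of all other genes tested, TC1765066 was the one whose values followed A_51_P450957 most closely, with a Pearson r of 0.994 and a Spearman rho of 0.952. Since it was picked for this likeness, these values are a description, with no test. Without the 2 arrays farthest from the median of A_51_P450957, r was 0.993. TC1765066 itself differed by 0.45 ± 0.12 between the groups, with means of 6.95 in Prep1deltaSM and 6.50 in Prep1f/+ muscle. The array's probe of the beta-actin gene Actb differed by -0.12 ± 0.16, with means of 2.96 and 3.08. The same Acta2 probe had an r of -0.363 with A_52_P420504 (rho = -0.381; exact permutation p adjusted over 153 probe pairs = 0.79 and 0.774) and of -0.683 with the brighter Tagln probe (rho = -0.595; adjusted exact permutation p = 0.427 and 0.595). With Myh11, A_51_P450957 had an r of 0.616 (rho = 0.786, adjusted exact permutation p = 0.427 and 0.329). Of the other Acta2 probes, A_52_P210078 had an r of 0.869 with A_52_P420504 (adjusted exact permutation p = 0.145). A_52_P239556 had an r of 0.601 with it (adjusted exact permutation p = 0.427). Which transcripts hybridised to A_51_P450957 was not tested.

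A_52_P420504 had a higher r with Cnn1 and Tagln than with Myh11, a difference that was not tested. Its r was 0.917 with Cnn1 (exact permutation p = 0.000843, adjusted p = 0.043; rho = 0.881, adjusted p = 0.222; r = 0.788 without the 2 farthest arrays). It was 0.939 with Tagln probe A_52_P517683 (exact permutation p = 0.00213, adjusted p = 0.0816; rho = 0.857, adjusted p = 0.261; r = 0.925 without the 2 farthest arrays). With the other Tagln probe r was 0.844 and rho 0.833 (exact permutation p = 0.00756 and 0.0154, adjusted p = 0.145 and 0.261), with r at 0.724 without the 2 farthest arrays. With Myh11 r was 0.405 and rho 0.119 (adjusted exact permutation p = 0.745 and 0.959), and r was -0.323 without the 2 farthest arrays. These r values pool both groups, since 4 arrays per group are too few for a value within each. The farthest arrays were set by the median of 1 probe of each pair. This was Cnn1, the other Tagln probe or Myh11 in their pairs, and A_52_P420504 in its pair with A_52_P517683. The arrays left out were not the same for every pair, so the r values without them cannot be set against each other.

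**Figure D2:**
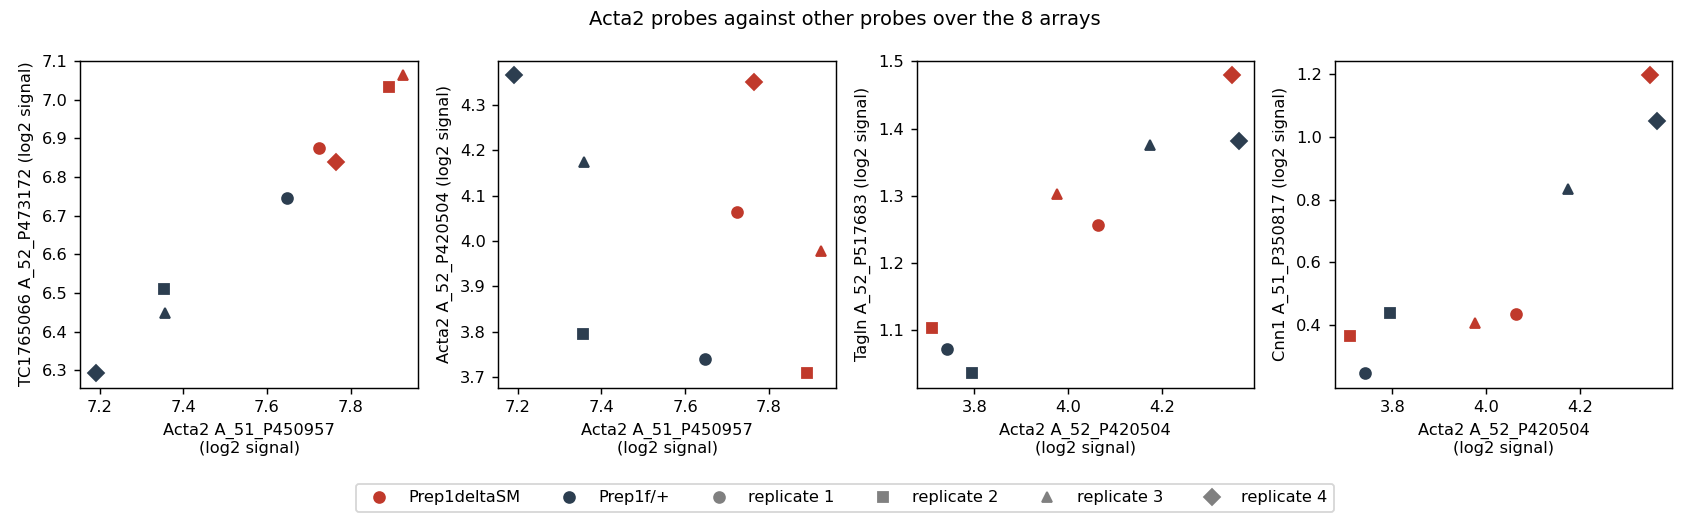
Log2 signals of probe pairs over the 8 arrays, with Prep1deltaSM mice in red and Prep1f/+ mice in dark blue and a marker shape for each replicate number. Acta2 probe A_51_P450957 rises with the TC1765066 probe (r = 0.994) and not with Acta2 probe A_52_P420504 (r = -0.363), which in turn rises with Tagln probe A_52_P517683 (r = 0.939) and Cnn1 (r = 0.917).

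Tagln encodes transgelin, an actin-binding protein of smooth muscle. Its brighter probe was at 4.77, 4.35, 4.61 and 5.06 in Prep1deltaSM muscle, against 4.78, 4.75, 4.99 and 5.19 in Prep1f/+ muscle. The groups overlapped, and the difference of -0.23 ± 0.17 (SE, interval -0.61 to 0.15) was within the spread between mice (limma adjusted p = 0.518). The other Tagln probe gave 0.07 ± 0.12. Cnn1 encodes calponin, an inhibitor of actomyosin in smooth muscle, and was at 0.44, 0.37, 0.41 and 1.20 in Prep1deltaSM muscle, against 0.25, 0.44, 0.83 and 1.05 in Prep1f/+ muscle. Prep1deltaSM replicate 4 stood far above its group, and the difference was -0.04 ± 0.24 (SE, interval -0.58 to 0.50; limma adjusted p = 0.949).

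On slides 2 to 4 the brighter Tagln probe, Cnn1 and Acta2 probe A_52_P420504 had differences of the same sign. On slide 1 their differences were 0.0177, -0.0043 and 0.27 in that order. Myh11 and Acta2 probe A_51_P450957 did not share this pattern and were higher in Prep1deltaSM muscle on 4 of 4 slides. The Prep1deltaSM mouse exceeded the Prep1f/+ mouse of its slide on slide 3 by 0.28 for Tagln, by 0.95 for Cnn1 and by 0.61 for Acta2 probe A_52_P420504. On slide 2 the differences were -0.64, -0.47 and -0.46 for the same probes in that order, and on slide 4 they were -0.58, -0.64 and -0.39. For these 3 probes the signal varied between mice of a group by more than the group means differed.

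Myocd encodes myocardin, the SRF partner that switches on these genes. It was dim, with probe A_51_P469942 well above background on 3 Prep1deltaSM and 2 Prep1f/+ arrays. Its log2 signal was -4.15, -4.18, -4.58 and -3.86 in Prep1deltaSM muscle, against -4.56, -4.01, -3.75 and -4.58 in Prep1f/+ muscle. The values overlapped throughout, with a difference of 0.04 ± 0.22 (SE, interval -0.48 to 0.55; limma adjusted p = 0.955). The other Myocd probe was well above background on 1 Prep1deltaSM array and on 0 Prep1f/+ arrays, and was not tested.

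The promoter of Acta2 is shown because the gene is a textbook SRF target. A RefSeq promoter sequence was at hand for 4 of the 8 members, Acta2, Cnn1, Rgs5 and Cspg4. The 250 bases before the Acta2 start, chr19:34255374-34255623 on the minus strand of GRCm38.p6, are printed with capitals on 2 stretches of 10 bases that differ from a CArG box by at most 1 base.

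Acta2 promoter: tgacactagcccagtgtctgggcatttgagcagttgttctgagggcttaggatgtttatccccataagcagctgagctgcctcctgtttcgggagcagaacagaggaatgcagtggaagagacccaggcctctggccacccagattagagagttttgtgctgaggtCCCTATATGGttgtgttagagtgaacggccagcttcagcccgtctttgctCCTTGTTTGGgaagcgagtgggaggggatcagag

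Counted from the start, the first stretch lies at -84 to -75 and the second at -34 to -25. Both strands were searched. At least 2 such matches were present in 2.96% of 32851 promoter windows of this length and at least 1 in 18.6%. An exact CArG box was present in 1.47% of windows and in 0 of the 4 members. Cspg4 had 2 matches that overlap each other, and Rgs5 and Cnn1 had 0. The hexamer TGACAG, which Prep1 and related TALE factors bind, was in 0 of the 4 member windows and in 15.9% of all windows. A match is a string of letters only, and its absence says nothing of binding elsewhere.

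Among the pericyte genes, Cspg4 encodes the proteoglycan NG2 on the pericyte surface. Its log2 signal was 1.08, 0.49, 0.79 and 0.66 in Prep1deltaSM muscle, against 1.27, 1.35, 1.13 and 1.03 in Prep1f/+ muscle. Prep1deltaSM replicate 1 lay above Prep1f/+ replicate 4, and the other 3 Prep1deltaSM mice lay below every Prep1f/+ mouse. The difference was -0.44 ± 0.14 (SE), a 1.35-fold lower signal, with an interval of -0.75 to -0.12. It did not pass (limma adjusted p = 0.221; exact two-sided permutation p = 0.0571). Within slides 1 to 4 the difference was -0.26, -0.63, -0.61 and -0.23, and fitting slide as a block gave an adjusted p of 0.232 (limma). A further Cspg4 probe, A_52_P278064, gave -0.18 ± 0.19, with values of 1.1, 0.48, 0.87 and 0.31 in Prep1deltaSM muscle, against 1.18, 0.78, 0.78 and 0.75 in Prep1f/+ muscle. Those groups overlapped. With normexp background correction and quantile normalization A_52_P278064 became the brighter probe and the Cspg4 difference was -0.10 (limma adjusted p = 0.761).

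Pdgfrb is the receptor through which endothelium recruits pericytes. It was at 2.45, 2.14, 2.39 and 2.42 in Prep1deltaSM muscle, against 2.83, 2.54, 2.65 and 2.32 in Prep1f/+ muscle. Prep1f/+ replicate 4 fell inside the Prep1deltaSM range and the other 3 lay above it. The difference was -0.23 ± 0.13 (SE, interval -0.52 to 0.06; limma adjusted p = 0.402). Pdgfrb and Cspg4 had an r of 0.77 over the arrays (rho = 0.833, adjusted exact permutation p = 0.254 and 0.261). The r was 0.51 without the 2 arrays farthest from the Pdgfrb median.

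Rgs5 encodes a regulator of G-protein signalling that is abundant in pericytes. By its brightest probe, A_51_P354934, it was at 3.13, 2.98, 3.03 and 3.0 in Prep1deltaSM muscle, against 3.01, 2.91, 2.78 and 3.12 in Prep1f/+ muscle. The groups overlapped, with a difference of 0.08 ± 0.10 (SE, interval -0.14 to 0.30; limma adjusted p = 0.705). The other probe, A_52_P136782, was at 3.35, 3.27, 3.25 and 2.96 in Prep1deltaSM muscle, against 3.08, 2.43, 2.78 and 2.67 in Prep1f/+ muscle. Here Prep1deltaSM replicate 4 was the only mouse of its group below the highest Prep1f/+ mouse, and the difference was 0.47 ± 0.15 (SE, limma adjusted p = 0.183 over all probes). The mean signals of the 2 probes were close. Without Prep1f/+ replicate 2 or Prep1f/+ replicate 4, A_52_P136782 became the brighter probe and the Rgs5 difference was 0.36 or 0.44, neither past the threshold.

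Without Prep1f/+ replicates 1 and 4, the 2 arrays that stood apart, the difference was 0.47 for Acta2, 0.47 for Myh11 and -0.48 for Cspg4. Rgs5 was then represented by A_52_P136782 and gave 0.60, and Myocd gave -0.31. None of these passed after adjustment (limma), and 2 arrays remained in the Prep1f/+ group.

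**Figure D3:**
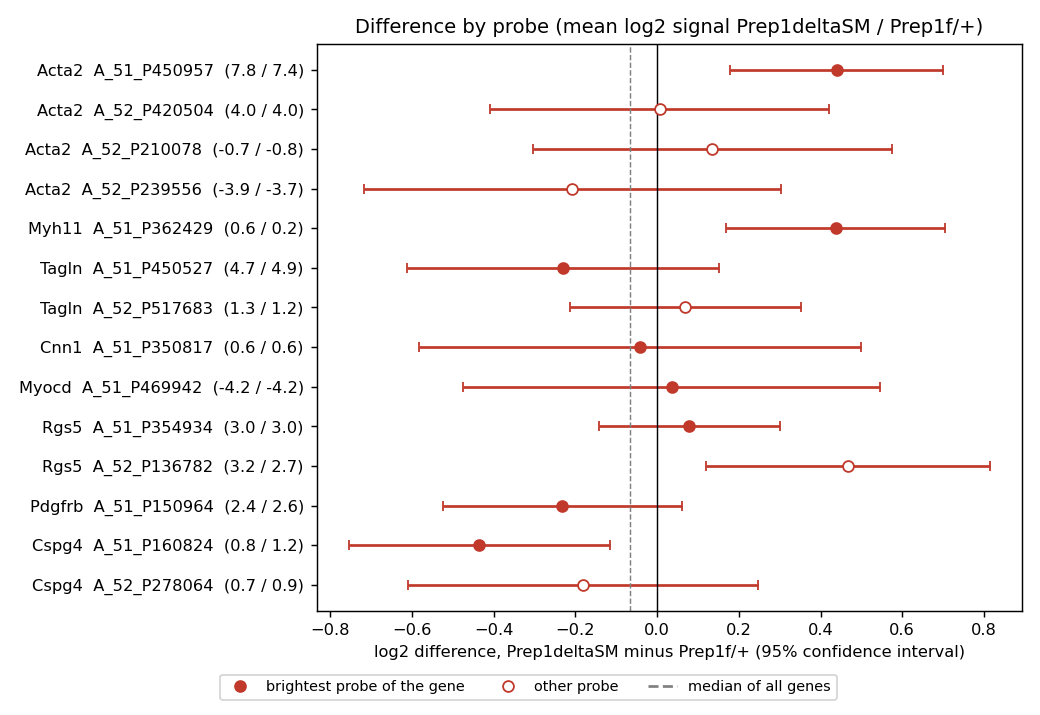
Log2 difference, Prep1deltaSM minus Prep1f/+, with its 95% confidence interval for the 14 member probes that passed the filter, from a limma fit over all probes; each label gives the mean log2 signal in Prep1deltaSM and then in Prep1f/+. Acta2, Rgs5 and Cspg4 each have a probe whose interval leaves out 0 and another whose interval includes it, and the dashed line marks the median of all genes at -0.07.

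Genes of the same programmes gave 0 calls after adjustment in any of the lists (limma). The counts below at an unadjusted p under 0.05 stand against 5.54% of all genes higher and 10.3% lower, and the counts by direction alone against 62.7% of all genes lower. Of 15 tested among 16 other smooth muscle contractile and cytoskeletal genes, 6 were higher and 9 lower by direction alone, with a median of -0.06. At an unadjusted p under 0.05, 3 were higher and 0 lower. The 4 genes named next had the smallest p of the list, so their shared direction by brightest probe does not stand for the list. Actg2, the gamma-actin of visceral smooth muscle, was at 3.27, 3.55, 3.12 and 3.28 in Prep1deltaSM muscle, against 2.63, 1.66, 2.57 and 3.24 in Prep1f/+ muscle. It overlapped through Prep1f/+ replicate 4 and differed by 0.78 ± 0.29 (limma adjusted p = 0.261). Mylk, the myosin light chain kinase that starts contraction, was at 1.76, 1.73, 1.78 and 1.88 in Prep1deltaSM muscle, against 1.18, 1.29, 1.58 and 1.64 in Prep1f/+ muscle. Its groups did not overlap, its difference was 0.37 ± 0.12 (limma adjusted p = 0.222), and its other probe gave 0.28 ± 0.14. Vcl, the adhesion protein vinculin, gave 0.43 ± 0.11 by its brightest probe and -0.24 ± 0.42 by another. Cald1, caldesmon, gave 0.23 ± 0.13, with 0.12 and -0.07 by its other probes.

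Of 17 tested among 18 other pericyte genes, 1 was higher and 2 lower at an unadjusted p under 0.05, with a median of -0.12. Abcc9 encodes a sulphonylurea receptor subunit of potassium channels, and the cells that gave its signal in whole muscle were not determined. It was at 3.17, 3.22, 3.20 and 3.16 in Prep1deltaSM muscle, against 2.83, 3.04, 3.07 and 2.86 in Prep1f/+ muscle. The groups did not overlap, and its difference of 0.24 ± 0.09 (limma adjusted p = 0.245) stood beside 0.30 ± 0.09 and 0.37 ± 0.10 by the other 2 probes. Kcnj8, a pore subunit of such channels, gave -0.24 ± 0.15, and -0.15 ± 0.19 by its other probe. Cd248, endosialin of pericytes and fibroblasts, was at 2.98, 2.62, 3.24 and 2.12 in Prep1deltaSM muscle, against 2.93, 3.79, 3.68 and 3.39 in Prep1f/+ muscle. It differed by -0.71 ± 0.27 (limma adjusted p = 0.263) and by -0.67 ± 0.26 through its other probe. Anpep, a surface peptidase, differed by -0.66 ± 0.28.

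Among the ligands and receptors of the PDGF pathway other than Pdgfrb, 6 of 6 were tested, 5 were lower, against 62.7% of all genes, and 1 was higher, and the median was -0.36. Pdgfc, a ligand of Pdgfra, was at -2.73, -3.48, -2.74 and -3.44 in Prep1deltaSM muscle, against -2.55, -2.50, -2.09 and -2.65 in Prep1f/+ muscle. It was the 1 gene of the list at an unadjusted p under 0.05 and its groups did not overlap, with a difference of -0.65 ± 0.22 (limma adjusted p = 0.227) and -0.74 ± 0.29 by its other probe. Pdgfra, a receptor of fibroblasts that is also in the fibroblast list, gave -0.42 ± 0.26, and Pdgfrl, a receptor-like protein, gave -0.43 ± 0.31. Pdgfd, a ligand of Pdgfrb, gave -0.30 ± 0.28 by its brightest probe and 0.34 ± 0.25 by another.

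Of the regulators of smooth muscle genes, 13 of 15 were tested and 0 reached an unadjusted p under 0.05, with a median of 0.00. The smallest p-values belonged to the LIM protein gene Csrp2 (-0.30 ± 0.18), the TGF-beta mediator Smad3 (0.27 ± 0.18), the Notch ligand Jag1 (-0.20 ± 0.13) and the SRF partner Mkl1 (-0.35 ± 0.24, and 0.18 ± 0.22 by another probe). Of the 13 paralogs of members, Myh14, a nonmuscle myosin heavy chain, was the 1 at an unadjusted p under 0.05. It was at 3.34, 3.65, 3.58 and 3.70 in Prep1deltaSM muscle, against 3.8, 4.27, 4.11 and 4.00 in Prep1f/+ muscle. Its groups did not overlap, and its difference was -0.48 ± 0.13 (limma adjusted p = 0.177). The other Myh14 probe gave -0.06 ± 0.25 but was dim, with means of -4.48 in Prep1deltaSM and -4.42 in Prep1f/+ muscle. Myh10, another nonmuscle myosin, gave -0.49 ± 0.29, Rgs2 gave -0.53 ± 0.34 and the beta-actin gene Actb gave -0.12 ± 0.16.

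Markers of other cell types were set beside these values. Fibroblast markers were lower for 9 of 10 genes, against 62.7% of all genes, and 5 were lower at an unadjusted p under 0.05, against 10.3% of all genes, with a median of -0.42. Their summed level relative to the 75th percentile ranged from 308 to 708 in Prep1deltaSM muscle, against 404 to 688 in Prep1f/+ muscle. Macrophage and leukocyte markers were lower for 8 of 8 genes, 4 at an unadjusted p under 0.05, with a median of -0.49 and summed levels of 14.8 to 25.4 in Prep1deltaSM muscle, against 21.1 to 42.5 in Prep1f/+ muscle. In both lists the mean log2 level was lowest in Prep1deltaSM replicates 2 and 4, as it was for Cspg4. Adipocyte markers were lower in the same 2 mice, with list means of -2.16 and -1.62 in those mice, against 1.11 and 0.95 in Prep1deltaSM replicates 1 and 3, relative to the mean of the 8 arrays. The part of these 3 lists in the Cspg4, Cd248, Anpep and Pdgfc values was not tested. Endothelial markers gave a median of -0.05 over 13 genes, with Tek at 0.39 and Vwf at -0.30, and summed levels of 95.7 to 119.6 in Prep1deltaSM muscle, against 100.3 to 125.4 in Prep1f/+ muscle. Adipocyte markers gave a median of -1.03 over 5 of 6 genes, none at an unadjusted p under 0.05, and summed levels of 101.1 to 166.9 in Prep1deltaSM muscle, against 134.3 to 170.0 in Prep1f/+ muscle. Schwann cell markers gave 0.14 over 4 genes and skeletal muscle fibre markers 0.01 over 8 genes.

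**Figure D4:**
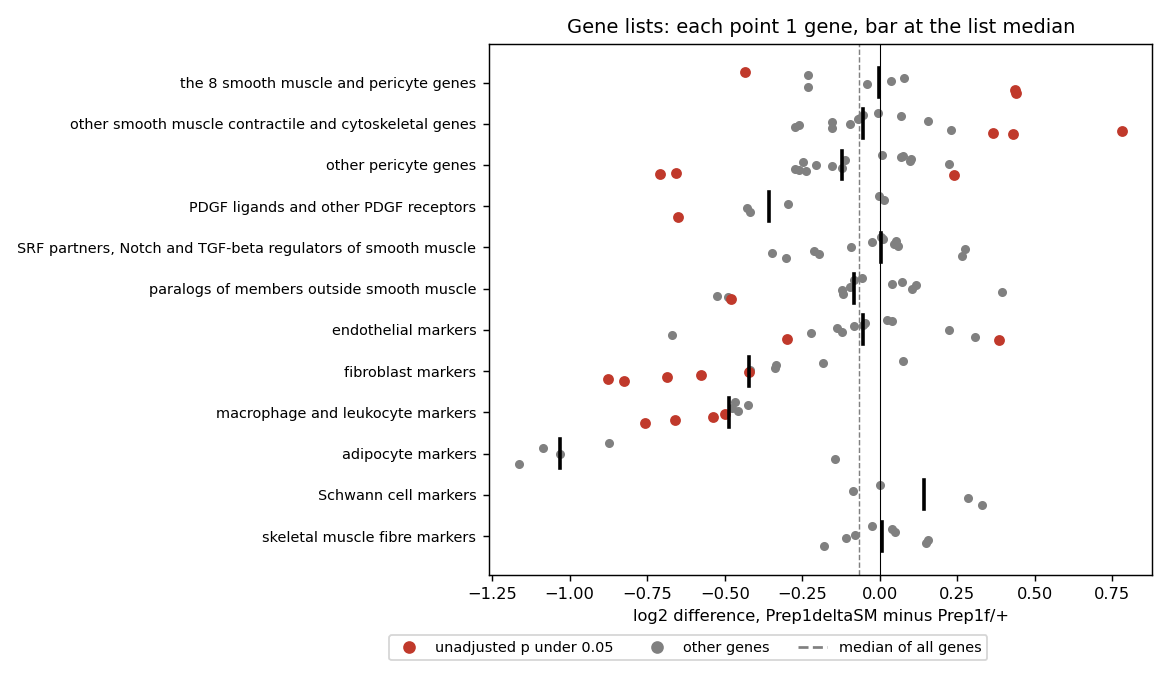
Log2 difference, Prep1deltaSM minus Prep1f/+, for each tested gene of the 8 members and of the related and marker lists, with the list median as a bar and the median of all genes as a dashed line. The members spread around 0 with a median of 0.00, and the fibroblast and leukocyte lists have medians of -0.42 and -0.49; no gene shown passed after adjustment.

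For each member the 3 genes with the most similar profile over the 8 arrays were listed by Pearson r, as a description that both groups and the array scaling share. After TC1765066, Acta2 by A_51_P450957 was followed by Gm1943 (r = 0.986) and Abcf2 (0.981). Myh11 was followed by the complement gene Hc (0.987), 2400003C14Rik (0.961) and Mup3 (0.961). Tagln was followed by Kcnk6 (0.968), Pvr (0.950) and S100a10 (0.947), and Cnn1 by Pde7a (0.962), Nr4a2 (0.956) and Chit1 (0.953). Myocd was followed by Dock5 (0.938), Fam117b (0.934) and Nr2f2 (0.934). Rgs5 was followed by Sh3bp4 (0.981), Galnt5 (0.976) and Shoc2 (0.955), Pdgfrb by Atg7 (0.955), Cirbp (0.954) and Eid1 (0.951), and Cspg4 by Zfp90 (0.965), Nek8 (0.964) and Osbpl3 (0.960).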

How the data were processed

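Muscle RNA of 8 mice carried the dye Cy3 on Agilent arrays (design 014868, per the file headers). The intensity deposited for a spot was the processed signal of Feature Extraction 10.5.1.1 (protocol GE1_107_Sep09), per the file headers; the submitters' processing notes name version 9.1, and which made the values is not given in the sources used here. The authors also deposited a table of 32812 intensity values per array, of which 26248 rows came within 0.1 log2 of quantile-normalized scanner signals and served as an alternative; the rule by which it combined probes is not known.

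Log2 intensity was taken relative to each array's 75th percentile. Non-uniform spots (0 to 11 per array) were left out; no spot was saturated. Spots of a probe were averaged, probes well above background on 4 or more arrays kept (24488 of 41174), and a gene represented by its brightest probe (16016 genes). limma 3.58.1 (lmFit, eBayes; R 4.3.3) compared the groups, and p-values were adjusted by Benjamini-Hochberg across all genes; other probes come from a fit over all probes. The fit was tested on simulated data. Exact permutation tests used all 70 assignments, or all orders for correlations. Gene names and mm9 positions are the files'; an mm9 annotation was not used here. Promoters are from RefSeq, GRCm38.p6. The design text states 4 mice per genotype. Precision is set by that number of arrays.

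The members and lists were chosen with earlier results of these data known. Genes named are Pknox1, the 8 members, the 4 genes with the smallest p of each related list, and the 3 genes most like each member; Tek and Vwf, and the comparison of Acta2 with the TC1765066 probe, were chosen after their values were seen. Alternatives changed the background correction, scaling, filters, probe rule, source of values, fit and arrays, and took slide as a block.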

Additional observations from a re-analysis of the deposited data

Results flagged for a closer look

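Within the 4 mice of a group, a value was marked where its gap to the nearest of the others over the group's range exceeded Dixon's critical value at 95%. Of 70 groups tested for the members and named related genes 6 were marked, where chance marks about 5%. Cnn1 in Prep1deltaSM muscle was highest in replicate 4 at 1.20, against 0.37 to 0.44 in the other 3 mice (ratio 0.917). Cspg4 probe A_52_P278064 in Prep1f/+ muscle was highest in replicate 1 at 1.18, against 0.75 to 0.78 (ratio 0.916). Vcl in Prep1f/+ muscle was highest in replicate 4 at 1.72, against 1.45 to 1.49 (ratio 0.838). Cald1 in Prep1deltaSM muscle was highest in replicate 1 at 0.02, against -0.21 to -0.18 (ratio 0.861). Pdgfd in Prep1deltaSM muscle was lowest in replicate 2 at -2.31, against -1.48 to -1.41 (ratio 0.93). Rgs2 in Prep1deltaSM muscle was lowest in replicate 4 at -0.57, against 0.41 to 0.61 (ratio 0.837).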

How the results depend on the processing

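Under 22 other settings, of which 20 were planned and 2 (Acta2 by another probe, and Prep1f/+ replicates 1 and 4 left out together) were chosen after seeing the data, 0 members and 0 genes of the related lists passed an adjusted p of 0.05 (limma). The lowest adjusted p was 0.0568 for Acta2 and 0.0943 for Myh11, both with normexp and quantile normalization, 0.154 for Cspg4, with array weights, and 0.088 for Rgs5 probe A_52_P136782, also with array weights. Members without overlap numbered 1 with median centring, with a gene's probes averaged, with the authors' values and with Acta2 by probe A_52_P420504. With 1 array left out they numbered 2 to 4, the 4 without Prep1f/+ replicate 4. Without Prep1f/+ replicates 1 and 4, which leaves 2 arrays in that group, they numbered 5. Groups of fewer arrays overlap less often, and the share of all genes without overlap was not computed with arrays left out. These counts with arrays left out therefore cannot be set against the 3.72% and 6.74% of all genes. Genes called over the whole array numbered 26 with normexp and quantile normalization, 20 with the trended robust fit, 22 with array weights, 0 with slide as a block, 0 without Prep1f/+ replicates 1 and 4, and 0 to 5 with 1 array left out. Pknox1 kept its direction in the 22 settings but did not pass with slide as a block (-1.76) or without Prep1f/+ replicates 1 and 4 (-1.78), and ranged from -1.84 to -1.68 with 1 array left out, where it did not pass without Prep1deltaSM replicate 2, Prep1f/+ replicate 2 or Prep1f/+ replicate 3; with normexp it was -0.89 and passed.

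By the brightest probe or the mean of a gene's probes, Myh11, Tagln, Rgs5, Pdgfrb and Cspg4 kept their sign in every setting that gave a value. For Tagln that sign was negative and belonged to the brighter probe. Its other probe, A_52_P517683, was positive in every setting that gave it a value, at 0.0043 to 0.13. With the authors' values Acta2 was -0.23, through A_52_P239556, the probe whose row could be used there, and with the mean of its probes it was 0.09. Small differences turned sign: Myocd was -0.0043 with normexp, -0.17 with array weights, -0.31 without Prep1f/+ replicates 1 and 4, and -0.0817 to 0.19 with 1 array left out; Cnn1 ranged from -0.24 to 0.0942 with 1 array left out; and Acta2 probe A_52_P420504 was -0.0097 with median centring and ranged from -0.10 to 0.12. The causes were not tested. The median of all genes was -0.07 with the scaling used, -0.08 with median centring, -0.03 with quantile normalization and -0.02 after normexp. The labels give no replicate number that groups share, so the slide, which held 1 array of each genotype, was the only pairing; the fits with slide as a block are given above and beside the members. Myocd, near background, limits what can be said of it.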
